A study of Mus musculus with 6 samples.

Results

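Steroid hormones act on ovarian surface epithelial cells, the single layer that covers the ovary, largely through nuclear receptors. After the hormone binds, such a receptor leaves its chaperones, pairs with a second receptor molecule, binds short DNA elements and recruits coactivators or corepressors. Estrogen and progesterone receptors are routine markers in the pathology of ovarian carcinoma. The receptors described here are the 8 genes *Esr1* and *Esr2* (estrogen receptors alpha and beta), *Esrra* (an orphan relative of the estrogen receptors that binds no known natural estrogen), *Pgr* (the nuclear progesterone receptor), *Pgrmc1* and *Pgrmc2* (heme-binding membrane proteins linked to progesterone), *Nr3c1* (the glucocorticoid receptor) and *Nr3c2* (the mineralocorticoid receptor). They were chosen by gene symbol, and all 8 were present among the 20405 named genes of the deposited table, each with 1 probe set.

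Total RNA of the mouse ovarian surface epithelial line M0505 (3 arrays) and of its transformed derivative STOSE (3 arrays) was measured on Affymetrix arrays of the Mouse Gene 1.0 ST design, and the comparison asks how the transformed cells differ from their parental line. Both lines carry the FVB/N background and were grown in the same α-Minimal Essential Medium with fetal calf serum, EGF, ITSS and antibiotics. STOSE cells arose from M0505 cells during prolonged culture, so transformation, time in culture and differences between these particular lines cannot be told apart. No steroid is listed as an addition, and serum itself can carry steroids. Each line is a single line, so the biological replicates are samples of that line and not of different mice, and the p-values measure only the spread between these samples. The values are log2 robust multi-array average (RMA) values. A gene is called here when the adjusted p of limma is under 0.05 and the lines differ by at least 2-fold. The arrays carry no read depth, and their number limits the precision.

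The arrays of one line were close to each other (Pearson's r over genes 0.997 to 0.999, against 0.943 to 0.95 between lines). Signal over background was read against the 1134 olfactory receptor probe sets, whose 95th percentile was 4.72 on the log2 scale. Of 10 surface epithelium markers, 9 were above this level in both lines, the exception being *Lhx9*, and *Krt7*, *Krt8*, *Krt19* and *Gata4* were called lower in STOSE cells. Over the 10 markers the summed linear signal was 25280 to 26470 in the M0505 arrays and 13530 to 14430 in the STOSE arrays. Markers of other cells of the ovary and oviduct were in part above this level and in part not. For theca and luteal cells 0 of 4 markers were above background in either line, with a summed signal of 42.1 to 44.1 in M0505 and 47.4 to 50.6 in STOSE cells. For granulosa cells 3 of 7 were above it in M0505 and 4 of 7 in STOSE cells (summed signal 1253 to 1424 and 445 to 503), *Inha* was called lower, and *Fshr*, *Lhcgr* and *Cyp19a1* were at background. The granulosa markers *Foxl2* (mean 6.76 in M0505 and 6.39 in STOSE cells) and *Inhbb* (8.62 and 8.01) were above it in both lines and not called. For oviduct epithelium 3 of 5 were above it in M0505 and 4 of 5 in STOSE cells (146 to 152 and 239 to 274), and *Ovgp1* was called higher. For leukocytes 2 of 6 were above it in both lines (807 to 1063 and 205 to 249), *Cd68* was called lower, and *Ptprc* was at background. For endothelial cells 4 of 5 were above it in M0505 and 3 of 5 in STOSE cells (857 to 941.5 and 144 to 149), *Kdr* was called lower, and *Pecam1* was at background. The endothelial markers *Cdh5* (mean 4.81 in M0505 and 5.01 in STOSE cells), *Tek* (4.76 and 4.78) and *Vwf* (5.3 and 5.5) were above it in both lines and not called. The part of these markers in the receptor results was not tested.

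Among the 8 receptor genes, 2 were called lower in STOSE cells, *Esr1* and *Pgr*, and 0 were called higher. Over all genes, 7.59% were called lower and 4.9% were called higher by the same limma rule. By the adjusted p alone, *Pgrmc1* and *Pgrmc2* were also lower, which makes 4 of 8 against 24.8% of all genes, and *Nr3c1* was higher, which makes 1 of 8 against 31.6%. At an unadjusted p under 0.05, 2 of the 8 were higher and 4 were lower, beside 7158 and 5330 of all 20405 genes. *Esr2*, *Nr3c2* and *Esrra* were within 0.14 of no difference on the log2 scale and did not pass the adjusted p. The median log2 fold change of the 8 genes was −0.24, and that of all genes was 0.08. The arrays of the lines did not overlap for 7 of the 8 receptor genes, a pattern that 64.6% of all genes also showed.

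**Figure D1:**
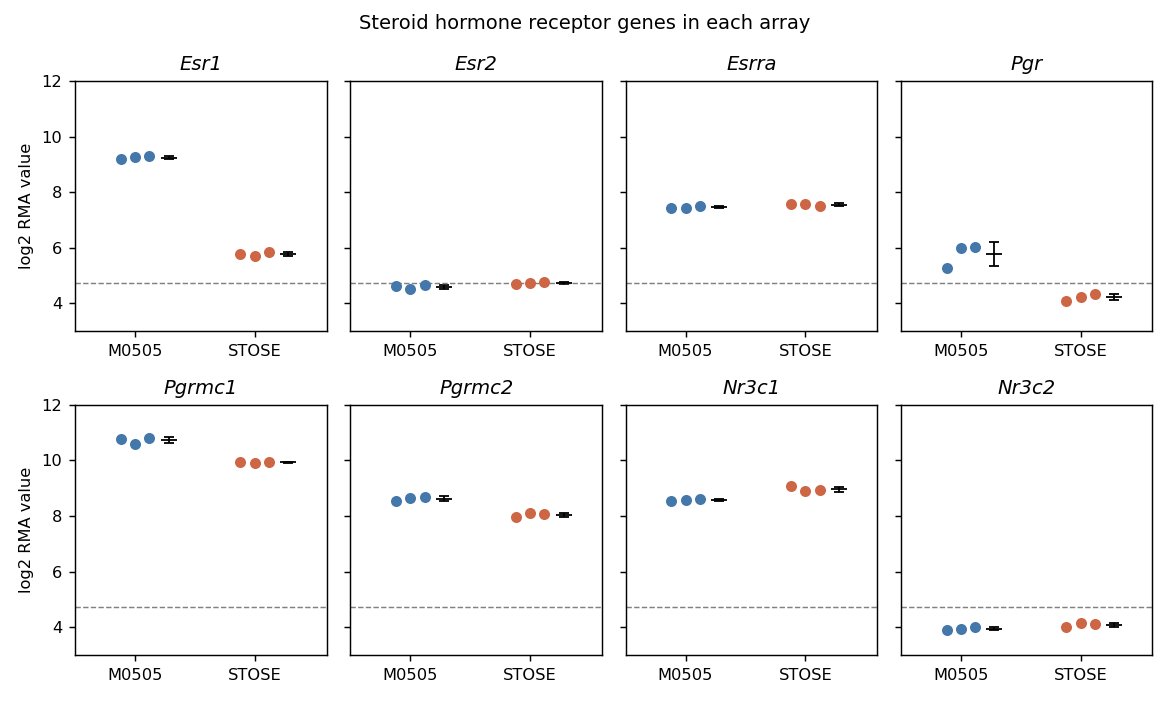
Log2 RMA value (vertical axis) of each receptor gene in the 3 M0505 arrays (blue) and 3 STOSE arrays (orange), with the mean ± SD in black and the 95th percentile of olfactory receptor probe sets, 4.72, as a dashed line. *Esr1* fell from 9.25 to 5.78 and *Pgr* from 5.76 to under the dashed line, and *Nr3c2* lay under it in both lines; heights of different genes cannot be compared, since each probe set has its own response.

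*Esr1* encodes estrogen receptor alpha, the receptor through which most transcriptional effects of estradiol run. Its log2 value was 9.19, 9.26 and 9.29 in the M0505 arrays and 5.78, 5.71 and 5.85 in the STOSE arrays. Every STOSE array lay more than 3 log2 units under every M0505 array, and arrays of a line differed little. The means were 9.25 ± 0.05 (SD, n = 3) and 5.78 ± 0.07 (SD, n = 3), an 11.0-fold fall (log2 fold change −3.47 with a standard error of 0.06, limma adjusted p = 5.2e-09). The 95% confidence interval was 9.99-fold to 12.2-fold. *Esr1* ranked 142 among the 1548 genes called lower, and only 0.921% of all genes showed a larger difference in either direction. The STOSE mean was still above the olfactory receptor level. In RNA of whole cultures, fewer cells with the transcript and less transcript per cell cannot be told apart.

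*Pgr*, itself a classical estrogen-induced gene, encodes the nuclear progesterone receptor. It was at 5.27, 5.99 and 6.03 in the M0505 arrays and at 4.10, 4.23 and 4.33 in the STOSE arrays. The groups did not overlap, but M0505 replicate 1 lay well under the other two M0505 arrays. The means were 5.76 ± 0.43 (SD, n = 3) and 4.22 ± 0.12 (SD, n = 3), a 2.91-fold fall (log2 fold change −1.54 with a standard error of 0.19, limma adjusted p = 0.000152), with a 95% confidence interval of 2.16-fold to 3.92-fold. The log2 fold change was −1.79 without M0505 replicate 1 and −1.41 without M0505 replicate 3, the 2 extremes of leaving out each array in turn. The pooled SD of *Pgr* within lines, 0.313, was exceeded by only 1.18% of all genes, whereas that of the other 7 receptor genes was 0.038 to 0.0818. All 3 STOSE arrays were under the olfactory receptor level, so the size of the fall is measured against a signal that cannot be told from background.

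**Figure D2:**
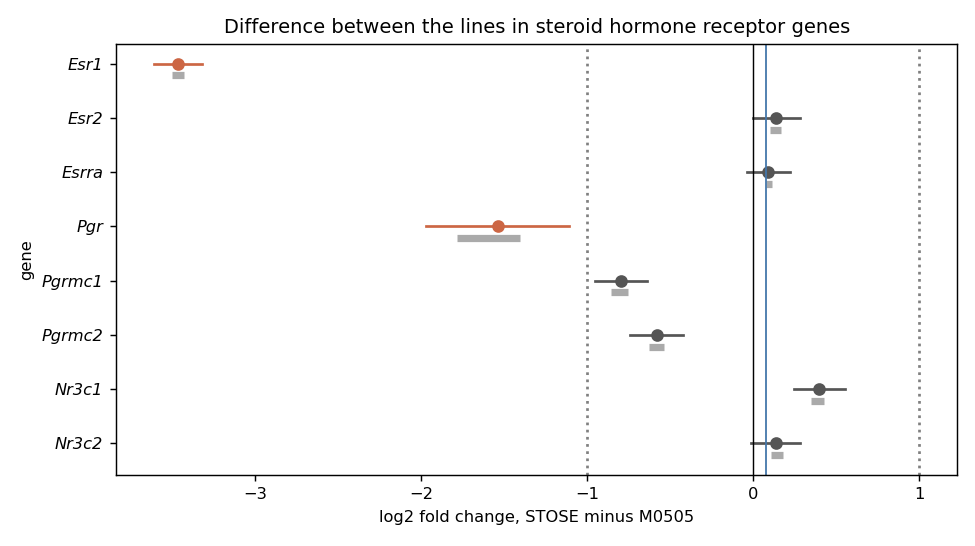
Log2 fold change of STOSE against M0505 cells (horizontal axis) for each receptor gene, as limma estimate (point) with its 95% confidence interval (thin line) and, in gray under it, the range when each array was left out in turn; orange marks called genes, dotted lines mark 2-fold and the blue line the median of all genes, 0.08. *Esr1* (−3.47) and *Pgr* (−1.54) lie beyond 2-fold, *Pgrmc1* (−0.80) and *Pgrmc2* (−0.58) between 2-fold and 0, and the other 4 genes are at 0.09 to 0.40.

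The stretches of DNA around the annotated start sites of these genes are shown to let the promoters of the 2 called genes be read beside that of *Pgrmc1*, a gene that was lower by less than 2-fold. Sequences are RefSeq promoters of GRCm38.p6, from 250 bases before to 50 bases after the start, 5′ to 3′ on the strand of the gene, and were found for 7 of the 8 genes. Capitals mark GGGCGG (the GC box bound by SP1), TATAAA (the TATA box), AGGTCA (the half-site of estrogen and related receptors) or AGAACA (the half-site of glucocorticoid, mineralocorticoid and progesterone receptors), searched on both strands, with no overlap between different motifs in the sequences printed. The first 2 sequences belong to *Esr1*, at chr10:4611739-4612038 and chr10:4709908-4710207 (both plus strand), the third to *Pgr* at chr9:8899583-8899882 (plus strand) and the last to *Pgrmc1* at chrX:36597943-36598242 (plus strand).
Esr1, upstream start: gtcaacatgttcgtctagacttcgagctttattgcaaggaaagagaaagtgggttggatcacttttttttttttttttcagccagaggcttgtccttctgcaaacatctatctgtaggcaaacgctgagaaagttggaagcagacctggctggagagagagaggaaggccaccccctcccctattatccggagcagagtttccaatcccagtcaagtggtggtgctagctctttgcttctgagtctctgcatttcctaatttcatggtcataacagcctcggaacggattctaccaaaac
Esr1, downstream start: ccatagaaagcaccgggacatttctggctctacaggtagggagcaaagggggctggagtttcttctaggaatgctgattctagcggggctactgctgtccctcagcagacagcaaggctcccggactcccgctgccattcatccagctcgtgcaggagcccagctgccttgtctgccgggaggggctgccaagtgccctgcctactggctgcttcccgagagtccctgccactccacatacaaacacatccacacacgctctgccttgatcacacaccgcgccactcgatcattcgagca
Pgr: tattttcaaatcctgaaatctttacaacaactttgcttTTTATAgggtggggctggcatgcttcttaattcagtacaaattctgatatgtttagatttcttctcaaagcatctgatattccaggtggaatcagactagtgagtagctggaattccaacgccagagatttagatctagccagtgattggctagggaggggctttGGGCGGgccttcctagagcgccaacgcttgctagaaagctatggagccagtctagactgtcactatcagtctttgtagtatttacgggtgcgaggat
Pgrmc1: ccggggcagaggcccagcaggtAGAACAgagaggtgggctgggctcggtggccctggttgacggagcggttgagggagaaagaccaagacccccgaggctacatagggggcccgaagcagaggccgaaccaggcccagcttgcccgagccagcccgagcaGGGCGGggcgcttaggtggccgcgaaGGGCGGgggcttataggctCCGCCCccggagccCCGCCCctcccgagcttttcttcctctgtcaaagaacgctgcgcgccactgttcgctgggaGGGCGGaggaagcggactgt

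Neither *Esr1* window held any of the 4 motifs. The *Pgr* window held 1 GC box, 47 bases before the start, and the TATAAA letters once, 212 bases before it and on the opposite strand. The *Pgrmc1* window held 5 GC boxes and 1 AGAACA. Among the receptor genes not shown, *Pgrmc2* and *Nr3c2* held 3 GC boxes each, *Esrra* held 2 and *Esr2* none. Over all 32851 promoters of the same length, GGGCGG occurred in 35.7%, TATAAA in 13.6%, AGGTCA in 16.3% and AGAACA in 19% of them. The GC content was 46.3% and 59.3% in the *Esr1* windows and 43.7% in that of *Pgr*, against 65.7% to 69.3% for *Nr3c2*, *Esrra*, *Pgrmc1* and *Pgrmc2*, 56% for *Esr2* and a median of 52.7% over all promoters. The ratio of observed to expected CpG was 0.373 and 0.463 for *Esr1*, 0.427 for *Pgr*, 0.537 for *Nr3c2*, 0.595 for *Esr2*, 0.682 for *Pgrmc1*, 0.699 for *Pgrmc2* and 0.781 for *Esrra*, with a median of 0.384 over all promoters. These are descriptions of the reference sequence, and a motif match is not a bound site.

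Estrogen receptor beta, the product of *Esr2*, and ERR alpha, the product of *Esrra*, stand beside *Esr1* in the same branch of the nuclear receptor family. *Esr2* was at 4.62, 4.52 and 4.65 in M0505 cells and at 4.71, 4.72 and 4.77 in STOSE cells. These arrays did not overlap, yet all lay near the olfactory receptor level of 4.72. The log2 fold change was 0.14 (95% confidence interval 7.1e-05 to 0.28, limma adjusted p = 0.0816). *Esrra* was at 7.45, 7.44 and 7.51 in M0505 cells and at 7.59, 7.57 and 7.51 in STOSE cells. It was well above background, and the highest M0505 array and the lowest STOSE array were almost level. The log2 fold change was 0.09 (95% confidence interval −0.04 to 0.22, adjusted p = 0.198), so a difference of 2-fold in either direction lies outside the interval. The other ERR genes *Esrrb* (log2 fold change 0.19, adjusted p = 0.0555) and *Esrrg* (0.09, adjusted p = 0.313) were near background in both lines.

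The membrane-associated progesterone receptor components bind heme and regulate cytochrome P450 enzymes and heme synthesis. *Pgrmc1* was at 10.75, 10.60 and 10.81 in M0505 cells and at 9.93, 9.91 and 9.93 in STOSE cells. The STOSE arrays were almost identical and lay under every M0505 array. *Pgrmc1* was thus 1.74-fold lower in STOSE cells (log2 fold change −0.80 with a standard error of 0.07, limma adjusted p = 1.89e-05), with a 95% confidence interval of 1.56-fold to 1.94-fold. *Pgrmc2* was at 8.53, 8.66 and 8.69 in M0505 cells and at 7.96, 8.11 and 8.06 in STOSE cells. Again the arrays did not overlap, and *Pgrmc2* was lower by the adjusted p, with a 95% confidence interval of 1.34-fold to 1.67-fold (log2 fold change −0.58 with a standard error of 0.07, adjusted p = 0.000145). The confidence intervals of the pair on the log2 scale were −0.95 to −0.64 and −0.74 to −0.42, and the difference between them was not tested.

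Neither corticosteroid receptor was called. *Nr3c1*, the glucocorticoid receptor that most cell types express, was at 8.52, 8.57 and 8.62 in M0505 cells and at 9.07, 8.91 and 8.92 in STOSE cells. All STOSE arrays were above all M0505 arrays. The log2 fold change was 0.40 (standard error 0.07, limma adjusted p = 0.00102), a 1.32-fold difference with a 95% confidence interval of 1.19-fold to 1.47-fold that excludes 2-fold. *Nr3c2*, which in kidney mediates the response to aldosterone, was at 3.91, 3.92 and 4.02 in M0505 cells and at 4.01, 4.14 and 4.11 in STOSE cells. The groups overlapped, and both lay under the olfactory receptor level (log2 fold change 0.14, adjusted p = 0.104).

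**Figure D3:**
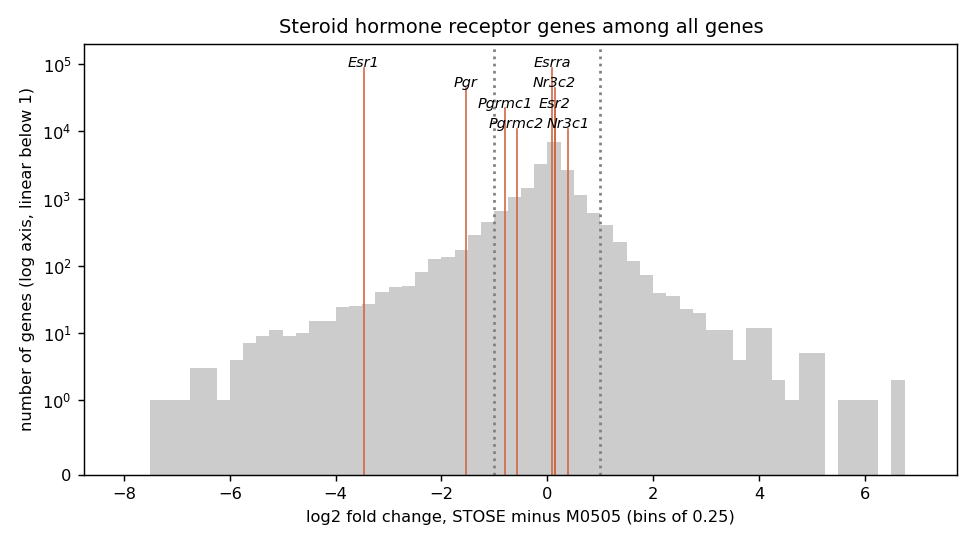
Number of genes (vertical axis, logarithmic above 1) in bins of 0.25 of the log2 fold change of STOSE against M0505 cells (horizontal axis) for all 20405 genes, with each receptor gene as an orange line and 2-fold as dotted lines. *Esr1* sits in the far left tail, where 0.921% of genes have a larger difference, and *Esr2*, *Esrra* and *Nr3c2* sit in the central peak.

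The position of the receptor genes was compared with that of other genes by chromosome. On chromosome 10, which carries *Esr1*, the median log2 fold change of the other 928 genes was −0.05, and that of the 698 above background was −0.23. On chromosome 9, which carries *Pgr*, it was 0.05 over 1161 genes and 0.05 over the 838 above background. On the X chromosome, which carries *Pgrmc1*, it was 0.01 over 759 genes and −0.24 over the 458 above background, and on chromosome 3, which carries *Pgrmc2*, it was 0.18 over 940 genes and 0.28 over the 662 above background. On chromosome 12, which carries *Esr2*, it was 0.10 over 607 genes and 0.08 over the 473 above background. On chromosome 8, which carries *Nr3c2*, it was 0.12 over 961 genes and 0.16 over the 769 above background. For chromosome 18 (*Nr3c1*) these medians were 0.07 and 0.02, and for chromosome 19 (*Esrra*) 0.09 and 0.12. Over all genes above background the median was 0.08. The genes next to *Esr1* and *Pgr* in the RefSeq order were read as well, a choice made after the receptor values were known. Of the 3 nearest genes on each side of *Esr1*, 0 reached 2-fold. The largest difference among these 6 was that of *Rmnd1* (log2 fold change −0.68, adjusted p = 0.000236), followed by *1700052N19Rik* (−0.58, adjusted p = 0.000434) and *Syne1* (−0.41, adjusted p = 0.00178), while *Myct1* and *Vip* were at background in both lines. Around *Pgr*, *9230110C19Rik* was called higher (1.13, adjusted p = 7.46e-06), *9030420J04Rik* was at −0.57 (adjusted p = 0.000169) and *Ccdc82* at 0.54 (adjusted p = 0.000691), and the other 3 genes did not pass the adjusted p.

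Over the 6 arrays, the genes whose values ran most like *Esr1* were *Ass1* (Pearson's r = 0.99999) and *Aplp1* (r = 0.99993), with log2 fold changes of −4.42 and −4.81. As many as 1282 genes had r above 0.99 with *Esr1*, a correlation that the gap between 2 groups of 3 arrays makes high. For *Pgr* the closest were *Echdc1* (r = 0.99927, log2 fold change −0.77) and *Lrrc20* (r = 0.99912, −0.60), with 143 genes above 0.99.

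Related genes were read by lists of relatives, chaperones, coregulators, hormone-induced genes, partners and enzymes, which together held 140 genes on the array, *Pgr* among them. Of these, 19 (13.6%) were called lower and 8 (5.71%) were called higher, beside 7.59% and 4.9% of all genes. Among the calls, 29.6% were thus higher, and among all genes 39.2% of the calls were. After centring each array on its median, these shares became 46.2% and 55.5%. The calls of each list below are to be read beside the 7.59% lower and 4.9% higher of all genes.

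Of 11 relatives of the receptors, 2 were called lower and 0 higher by limma. By the adjusted p alone 4 were higher and 3 lower, beside 31.6% and 24.8% of all genes. At an unadjusted p under 0.05, 5 were higher and 3 lower, beside 7158 and 5330 of all 20405 genes. *Nenf*, a heme-binding relative of *Pgrmc1*, fell 2.38-fold (log2 fold change −1.25 with a standard error of 0.18, adjusted p = 0.000381). *Paqr8*, a membrane progestin receptor, was at −0.82 (adjusted p = 0.000571), and its relative *Paqr7* at 0.51 (adjusted p = 0.0112). *Gper*, the G protein-coupled estrogen receptor, was near background, at 4.58 ± 0.19 (SD, n = 3) in M0505 and 4.92 ± 0.15 (SD, n = 3) in STOSE cells.

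Chaperones hold unliganded receptors in a state that can bind hormone. None of 16 reached 2-fold by limma, with log2 fold changes from −0.37 to 0.82. By the adjusted p 3 were higher and 3 lower, beside 31.6% and 24.8% of all genes. At an unadjusted p under 0.05, 3 were higher and 4 lower, beside 7158 and 5330 of all 20405 genes. *Hsp90aa1* (0.03, adjusted p = 0.671) and *Hsp90ab1* (0.08, adjusted p = 0.257), the HSP90 genes, and *Ptges3* (0.06, adjusted p = 0.427), the p23 cochaperone, did not pass. The difference of largest size was that of *Dnajb1*, an HSP40 gene (0.82, adjusted p = 3.78e-05).

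Of 20 coregulators, 2 were called lower and 1 higher, with a median log2 fold change of 0.13. *Ncoa4*, which acts as a receptor coactivator and as the cargo receptor for the autophagy of ferritin, fell 2.75-fold (log2 fold change −1.46, adjusted p = 9.21e-07). *Ncoa1*, the p160 coactivator SRC-1, was called lower (−1.03, adjusted p = 4.09e-05), but its log2 fold change was −0.97 without STOSE replicate 2, −0.96 without STOSE replicate 3, −0.94 after a further quantile normalization and −0.83 after centring, each of them under 2-fold. *Pprc1*, a relative of PGC-1, was called higher (1.10, adjusted p = 7.82e-05) and was at 0.98 without STOSE replicate 1. By the adjusted p alone 7 of the coregulators were higher and 5 lower, beside 31.6% and 24.8% of all genes. Under 2-fold, *Lcor* (0.64, adjusted p = 0.000172) and *Carm1* (0.56, adjusted p = 5.56e-05) were among the higher. *Ncoa7* (−0.63, adjusted p = 6.66e-05) and *Ncoa2* (−0.36, adjusted p = 0.000641) were among the lower. The corepressor gene *Ncor1* (−0.16, adjusted p = 0.0534) did not pass.

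**Figure D4:**
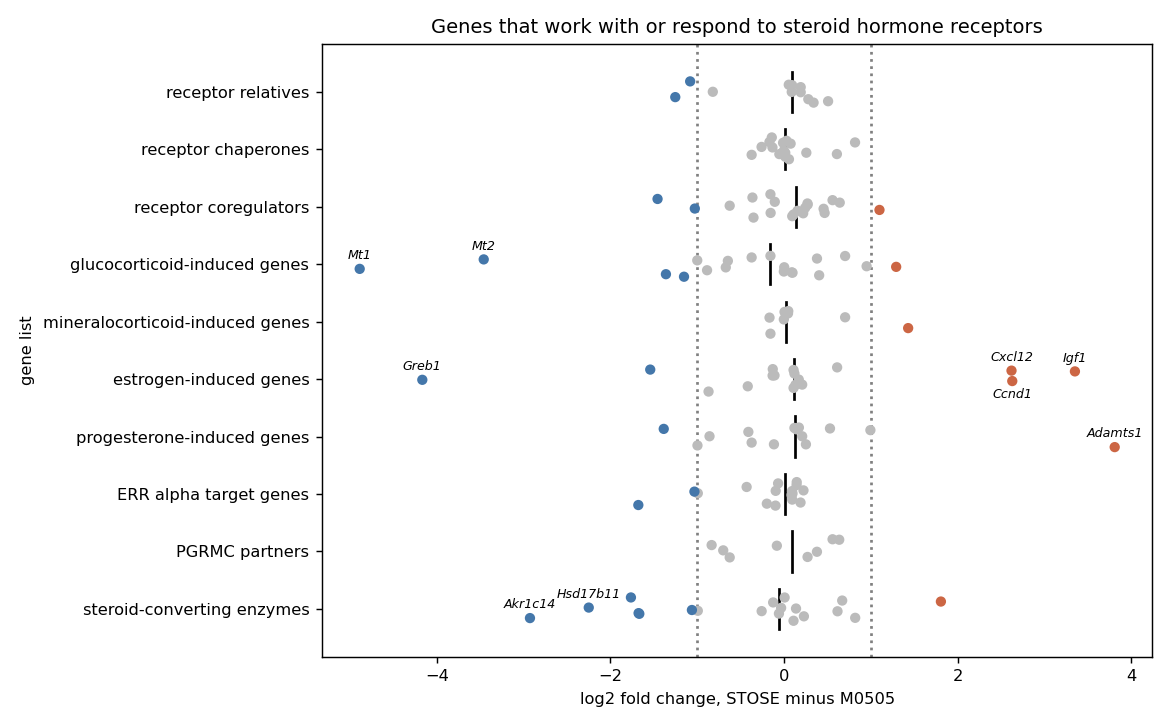
Log2 fold change of STOSE against M0505 cells (horizontal axis) for each gene of 10 lists (rows), with called genes in orange (higher) or blue (lower), the list median as a black bar and 2-fold as dotted lines; genes beyond 4-fold are named. *Greb1* (−4.17) and *Igf1* (3.35) lie on opposite sides within the estrogen-induced genes, and the chaperones lie between −0.37 and 0.82; vertical scatter within a row carries no value.

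The 17 estrogen-induced genes went both ways, with 2 called lower and 3 called higher and a median of 0.11. *Greb1*, a growth regulator and cofactor of estrogen receptor alpha, was at 8.85, 8.91 and 8.77 in M0505 arrays and at 4.22, 4.68 and 5.12 in STOSE arrays. The STOSE mean was under the olfactory receptor level, with a wide spread among these arrays. *Greb1* fell 18.0-fold (log2 fold change −4.17 with a standard error of 0.19, adjusted p = 5.97e-07), and *Pgr*, described above, was the other gene called lower. *Igf1*, the growth factor, rose 10.2-fold (3.35 with a standard error of 0.14, adjusted p = 3.37e-07). *Cxcl12*, a chemokine, rose 6.15-fold (2.62, adjusted p = 1.64e-05), and *Ccnd1*, cyclin D1, rose 6.19-fold (2.63, adjusted p = 6.17e-06). Many of these genes respond to several signals besides estrogen, and the list was drawn up with earlier results of these data known. By the adjusted p alone 5 of the list were higher and 4 lower, beside 31.6% and 24.8% of all genes. The genes that passed it under 2-fold were *Ctsd* (−0.87, adjusted p = 1.32e-05), *C3* (−0.42, adjusted p = 0.00594), *Stc2* (0.61, adjusted p = 0.000552) and *Myb* (0.17, adjusted p = 0.0371). Among the others, *Tff1*, *Areg*, *Xbp1* and *Nrip1* did not pass the adjusted p.

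Of 14 progesterone-induced genes, 1 was called lower and 1 higher. *Bmp2*, a growth factor of decidualization, fell 2.61-fold (log2 fold change −1.39, adjusted p = 7.82e-06) to a STOSE mean of 3.74, which is under the olfactory receptor level. *Adamts1*, a protease that ovulatory signals induce, rose 14.0-fold (3.81 with a standard error of 0.10, adjusted p = 2.29e-08). *Gata2* (−0.997, adjusted p = 2.92e-06) and *Lrp2* (0.995, adjusted p = 9.47e-06) were just under 2-fold, in opposite directions.

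Of 19 glucocorticoid-induced genes, 4 were called lower and 1 higher, and the median log2 fold change was −0.16. The metallothionein genes *Mt1* and *Mt2*, which metals as well as glucocorticoids induce, led the falls. *Mt1* was at 10.22, 10.29 and 10.38 in M0505 arrays and at 5.32, 5.44 and 5.46 in STOSE arrays. This is a 29.6-fold fall (log2 fold change −4.89 with a standard error of 0.07, adjusted p = 2.06e-09). *Mt2* fell 11.0-fold (−3.46 with a standard error of 0.29, adjusted p = 1.51e-05), with STOSE arrays from 7.33 to 8.66. *Lcn2*, lipocalin, fell 2.57-fold (−1.36, adjusted p = 0.00278) and *Ddit4*, an inhibitor of mTOR signaling, fell 2.22-fold (−1.15, adjusted p = 1.15e-06, with −0.95 after centring, under 2-fold). *Errfi1*, a feedback inhibitor of EGF receptor signaling, rose 2.45-fold (1.29, adjusted p = 2.88e-06). By the adjusted p alone 5 of the list were higher and 9 lower, beside 31.6% and 24.8% of all genes. Of the 14 members not called, some are given here, chosen after their values were seen. *Bcl6* (−0.9995, adjusted p = 2.57e-05) and *Glul* (−0.89, adjusted p = 4.49e-06) were lower. *Klf9* was at −0.67 (adjusted p = 0.00127), with its second probe set at −0.10, and *Angptl4* at −0.65 (adjusted p = 0.000342). *Dusp1* was at 0.41 (adjusted p = 0.00872) and *Nfkbia* at 0.38 (adjusted p = 0.0349). *Rgs2*, at background in both lines, was at 0.95 (adjusted p = 5.99e-05). *Fkbp5* was at −0.37 (adjusted p = 0.00192), *Per1* at −0.16 (adjusted p = 0.363), *Tsc22d3*, the gene for GILZ, at −0.00 (adjusted p = 0.988) and *Sgk1* at 0.70 (adjusted p = 0.000986).

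Of 8 mineralocorticoid-induced genes, 1 was called, *Edn1*, the endothelin gene, which rose 2.70-fold (log2 fold change 1.43, adjusted p = 9.25e-07). The sodium channel subunit genes *Scnn1b* and *Scnn1g* were under the olfactory receptor level in both lines. Of 16 ERR alpha target genes, 2 were called lower and 0 higher. By the adjusted p 3 were higher and 5 lower, beside 31.6% and 24.8% of all genes. At an unadjusted p under 0.05 these were also 3 and 5, beside 7158 and 5330 of all 20405 genes. *Pdk4*, an inhibitor of pyruvate oxidation, fell 3.20-fold (−1.68, adjusted p = 1.68e-06) to a STOSE mean of 4.22, which is under the olfactory receptor level. *Nr0b2*, a nuclear receptor without a DNA-binding domain, was called lower (−1.03, adjusted p = 0.000115) but was at −0.90 without M0505 replicate 2, −0.98 without STOSE replicate 3 and −0.83 after centring. Its STOSE mean, 4.48, was also under the olfactory receptor level. The citric acid cycle genes *Cs*, *Mdh2* and *Idh3b* did not pass the adjusted p. Of 8 PGRMC partners, 0 reached 2-fold by limma. By the adjusted p 4 were higher and 3 lower (4 and 3 also at an unadjusted p under 0.05), beside the shares of all genes just given. *Cyp51* was at −0.83 (adjusted p = 0.0168), with arrays of the lines that overlapped. *Scap* was at −0.70 (adjusted p = 1.67e-05), while its second probe set was at −0.02. *Fech*, ferrochelatase, was at −0.63 (adjusted p = 0.000177). *Serbp1* was at 0.64 (adjusted p = 2.06e-05) and *Tmem97*, the sigma-2 receptor gene, at 0.56 (adjusted p = 9.88e-05).

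Enzymes that make, convert or inactivate the ligands showed 6 calls lower and 1 higher among 19 genes on the array. This is 31.6% and 5.26%, beside 7.59% and 4.9% of all genes. Of the 19, 5 were not above the olfactory receptor level in either line. *Akr1c14*, a hydroxysteroid dehydrogenase, fell 7.61-fold (log2 fold change −2.93 with a standard error of 0.09, adjusted p = 7.19e-08), and *Hsd17b11* fell 4.76-fold (−2.25, adjusted p = 8.59e-06). *Hsd11b2*, which inactivates glucocorticoids and so shields the mineralocorticoid receptor, was at 6.90, 7.12 and 7.61 in M0505 arrays and at 5.86, 5.11 and 5.38 in STOSE arrays. It fell 3.40-fold (−1.76 with a standard error of 0.22, adjusted p = 0.00018). *Sts*, which frees estrogens and other steroids from their sulfates, fell 3.19-fold (−1.68, adjusted p = 1.11e-06). *Srd5a2* and *Srd5a3*, which the naming rule did not reach, were the other 2 called lower. *Srd5a2* was at −1.67 (adjusted p = 0.00039), with a STOSE mean of 4.67 that is under the olfactory receptor level. *Srd5a3* was at −1.06 (adjusted p = 1.3e-06) in the probe set used, while its second probe set was at 0.08. The mean of both was at −0.49 and the centred value at −0.86, each under 2-fold. *Srd5a1*, a steroid reductase that acts on testosterone and progesterone, rose 3.50-fold (1.81, adjusted p = 1.99e-06). *Hsd11b1*, which regenerates active glucocorticoid, and *Cyp19a1*, aromatase, were under the olfactory receptor level in both lines.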

How the data were processed

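Log2 RMA values of 3 M0505 and 3 STOSE arrays were analyzed from 1 deposited table. The authors made these log2 values with Affymetrix Expression Console and RMA, which subtracts background, equalizes the distributions of the arrays and combines the probes of a probe set; versions, annotation release and build are not given in the sources used here. Probe signals were not used here, so these steps could not be varied. Columns with the authors' means and fold changes were not used, and 0 array columns went unmatched. Of 28944 probe sets, 23530 had a symbol, and the probe set of highest mean was taken for each of 20405 genes. Values ran from 1.40 to 12.8.

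Genes were compared with lmFit and eBayes of limma 3.58.1 (R 4.3.3) with no covariate, and p-values were adjusted by Benjamini-Hochberg over all genes. The code was tested on simulated data. With 3 against 3 arrays a two-sided exact permutation test cannot go below p = 0.1, so none is given for single genes. The members and lists were chosen with earlier results of these data known. Genes named are the 8 receptors, at most 4 called genes per list and direction, the 2 genes most correlated with each called receptor, and some further list members and chromosomal neighbours chosen after their values were seen. Symbols were matched to RefSeq of GRCm38.p6, which placed 97.5% of genes. *Hsd17b8* and *Insl3* were not matched, and values of some list members are not reported here. Alternatives were a further quantile normalization, centring, a filter on the dimmest 25% or 50%, averaging probe sets, limma with a trend, a replicate block, other fold thresholds, the methods' t-test and leaving out each array.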

Additional observations from a re-analysis of the deposited data

How the results depend on the processing

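Of 17 alternatives, 15 gave values for single genes, and no direction turned among the genes named by the rule wherever they had a value. All 15 covered 22 of the 32 receptor and list genes, and the filters on dim genes removed the others. *Esr1* and *Pgr* were both called lower under every one of the 17 except 2. With the dimmest 50% of genes left out, 1 receptor gene was called lower, because *Pgr* itself was removed, and 11 related genes were called lower. With a 4-fold threshold 1 receptor gene (*Esr1*), 4 related genes higher and 5 lower, and 186 genes higher and 509 lower overall were called. With the adjusted p alone these counts were 1 receptor gene higher and 4 lower, 42 related genes higher and 44 lower, and 6454 genes higher and 5066 lower. Centring each array on its median moved the median log2 fold change of all genes from 0.08 to 0.28, and under it *Esr2* (0.34, adjusted p = 0.00177), *Nr3c2* (0.34, adjusted p = 0.00255) and *Esrra* (0.29, adjusted p = 0.00184) passed the adjusted p, as *Esrra* did after a further quantile normalization (0.18, adjusted p = 0.0242). The cause was not tested. Among the list genes named by the rule, 10 of 351 values dropped under 2-fold, in 5 genes. Without each array in turn, *Esr1* ranged from −3.50 to −3.43 and *Pgr* from −1.79 to −1.41, and 955 to 1065 genes were called higher and 1508 to 1591 lower. Same-numbered arrays of the lines deviated together by r = 0.256, 0.0421 and 0.249. Arrays with different numbers did so by r = −0.293 to 0.119. What same-numbered arrays share is not given and was not tested, and the main comparison did not pair them. With the replicate block *Esr1* stood at −3.47 (adjusted p = 4.44e-07) and *Pgr* at −1.54 (adjusted p = 9.11e-05), and 1001 genes were called higher and 1548 lower.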
